A study of Danio rerio with 10 samples.

Results

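The data described here are the baseline transcriptome of zebrafish embryos at 48 hours post fertilisation (hpf). They come from the 5 untreated libraries, replicates 1 to 5 of the 0 ppb group, out of 10 RNA-sequencing libraries in the series. Each library was made from total RNA of whole wild-type embryos carried along at 0 ppb of thallium nitrate (TlNO3) from 6 to 48 hpf. The other 5 libraries were from embryos kept at 200 ppb (3 libraries) or 800 ppb (2 libraries) of the same salt over the same hours. All 10 thus share genotype, stage and tissue. The members were chosen by their labelled dose, and no measured value entered the choice. The labels do not say whether replicates were separate clutches or how many embryos were pooled, so every p-value here measures the spread between these libraries, which may be technical. Replicate 1 was prepared by a hospital sequencing core and replicates 2 to 5 by a commercial provider. Site and replicate 1 therefore cannot be told apart within the untreated group.

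Depth was 48336918 counted reads in replicate 1, 12283473 and 13584874 in replicates 4 and 5, and 16530557 and 15611534 in replicates 2 and 3, over 32057 genes. Levels are given as CPM (counts per 1000000 counted reads), scaled between libraries by the trimmed mean of M-values (TMM). CPM is a share of reads, and a long transcript yields more reads than a short one, so differences in CPM between genes are not differences in numbers of transcripts. The authors deposited 2 sets of counts that differ for the provider's libraries. The per-sample count files were used, and reads recovered from the series table were set beside them where they changed a result.

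At 48 hpf the zebrafish embryo has a beating heart, circulating blood, contracting trunk muscle and pigmented eyes, and it lives on its yolk. Fast muscle fibres fill most of the trunk and contract with actin, myosin, tropomyosin and troponin, with calcium cleared by a pump in the sarcoplasmic reticulum. A bilayered epidermis rich in keratins covers the embryo, and the yolk syncytial layer packs yolk lipid into lipoproteins.

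Contractile proteins, keratins, the mitochondrial genome and the machinery of translation dominated the untreated embryo. The 10 genes with the highest mean level held 9.71% of all counts, the top 20 held 14.1%, and 590 genes held 50%. A mean of at least 5 CPM was reached by 13940 genes, and 103 reached 1000 CPM, while 4655 genes had no read in any of the 5 libraries. Of the 20 highest genes, 11 encode proteins of the sarcomere, the sarcoplasmic reticulum, muscle calcium buffering or muscle energy supply.

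The highest gene of all was actc1b, an alpha-actin expressed in embryonic muscle, at 18094 ± 5752 CPM (mean ± SD, n = 5). It stood at 7934 CPM in replicate 1, against 19519 and 19984 CPM in replicates 4 and 5 and 21709 and 21325 CPM in replicates 2 and 3. The 4 libraries of the provider lay close together and replicate 1 far below them. The calcium pump of the sarcoplasmic reticulum, atp2a1, averaged 8980.3 ± 2281 CPM. The fast myosin heavy chain myhz1.1 averaged 8586 ± 3754 CPM and the fast-muscle tropomyosin tpma 7187 ± 983 CPM. The muscle creatine kinases ckmb and ckma, which regenerate ATP from phosphocreatine, averaged 7055 ± 2285 and 5598 ± 1624 CPM. The calcium-buffering parvalbumins pvalb1 and pvalb2 averaged 4649.8 ± 2263 and 4157 ± 1937 CPM, with replicate 1 lowest in both.

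**Figure D1:**
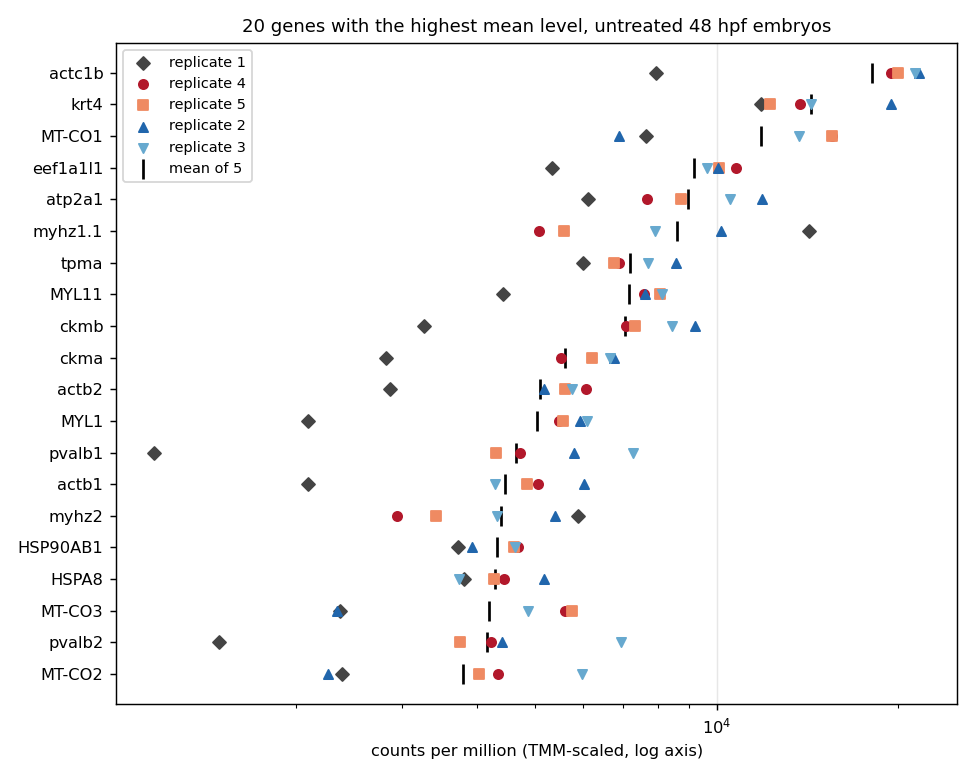
CPM (log axis) of the 20 genes with the highest mean level, 1 row per gene; each symbol is 1 of the 5 untreated libraries and the bar is their mean. actc1b leads at a mean of 18094 CPM, and replicate 1 lies lowest for actc1b but highest for myhz1.1, at 14236 CPM.

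Over 32 genes of fast skeletal muscle, the list held 7.34% ± 1.05 of the counts (SD, n = 5), more than any other of 55 lists examined. The list does not include actc1b, and 10 of its 39 entries matched no gene, so the share leaves out some muscle transcripts. Its share was 7.47% in replicate 1, 6.10% and 6.49% in replicates 4 and 5, and 8.64% and 7.99% in replicates 2 and 3. The slow-fibre list held 0.237% ± 0.0346 and was led by the slow myosin smyhc1 (815 ± 312 CPM). The heart list held 0.0873% ± 0.00979. Its top gene was actc1a, a second alpha-actin, at 443 ± 160.0 CPM, followed by MYBPC3, the cardiac myosin-binding protein C, at 133 ± 13.8 CPM. MYL7 and nppa, also on the heart list, averaged 28.1 ± 6.34 and 14.3 ± 1.56 CPM, so the heart share depended most on actc1a. In whole-embryo RNA, fewer cells of a type and less RNA per cell cannot be told apart, and this holds for each tissue below.

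The keratin krt4, found in the outer epidermis, was the second highest gene at 14334 ± 3051 CPM. It stood at 11851 CPM in replicate 1, 13740.1 and 12267 CPM in replicates 4 and 5, and 19477 and 14332 CPM in replicates 2 and 3, so replicate 2 was the high one. The keratins cyt1, krt5 and cyt1l followed at 2562 ± 685, 2364 ± 359 and 2282 ± 619 CPM. The 43 epidermal genes together held 2.75% ± 0.426 of the counts. Collagens of skin and fin fold were also abundant. The type I collagen gene col1a1a averaged 3440.3 ± 509.6 CPM and COL1A1, another type I chain, 1945 ± 178 CPM. In the skeleton, the type II collagen COL2A1 (ENSDARG00000069093) of notochord sheath and cartilage averaged 2364 ± 282 CPM, and the notochord list held 0.475% ± 0.0173, one of the steadiest shares between libraries.

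Of the lists that stand for a tissue, that of the yolk syncytial layer and its lipoproteins came next after fast muscle and epidermis. apobb.1, an apolipoprotein B that carries yolk lipid out of the yolk syncytial layer, averaged 3633 ± 701 CPM. It was lowest in replicate 3 (2505 CPM) and highest in replicate 1 (4308 CPM). The high-density lipoprotein genes apoa1a, apoa1b and apoa2 averaged 2786 ± 931, 2313 ± 569.7 and 2169 ± 916 CPM. The 29 genes of the yolk list held 1.66% ± 0.286 and the 33 liver genes 0.478% ± 0.0669. The liver list was led by the transferrin tfa (1043 ± 273 CPM) and the selenium carrier selenop (898 ± 167 CPM), whereas fabp10a, a fatty-acid binding protein of hepatocytes, averaged 3.62 ± 2.54 CPM. Since tfa is also a member of the yolk list, the yolk and liver shares overlap.

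Blood was represented mainly by embryonic globins. The alpha-type globin hbae3 averaged 2169.7 ± 952 CPM, with 728 CPM in replicate 1, 2130.1 and 1939 CPM in replicates 4 and 5, and 2911 and 3142 CPM in replicates 2 and 3. The anion exchanger SLC4A1 (ENSDARG00000012881) of red cells averaged 221 ± 27.2 CPM. Globins are a family of near-identical copies, and whether counting split reads unevenly between them was not tested. The globin hbae1.1 gave opposite signs in the 2 sets of counts, as described below, so globin values are uncertain.

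In the eye, lens crystallins dominated. The 60 crystallin genes held 0.756% ± 0.327 of the counts, with 5 of them at 0 reads in all 5 libraries, and crybb1l2 was highest at 719 ± 397 CPM. The photoreceptor list held 0.0369% ± 0.00933, and its highest gene was the photoreceptor transcription factor crx at 129.9 ± 36.4 CPM. The neural retina list was led by NEUROD4, a proneural factor, at 172 ± 21.5 CPM. In the nervous system the neuronal RNA-binding proteins ELAVL3 and ELAVL4 averaged 614 ± 252 and 519 ± 143 CPM. The astroglial filament gene GFAP averaged 295 ± 24.3 CPM, against 1.69 ± 1.48 CPM for mbpa, a myelin basic protein.

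Ribosomal and mitochondrial transcripts were the largest shares with no tissue of their own. The 81 cytosolic ribosomal protein genes held 6.00% ± 1.71, led by RPL3 (2371 ± 593 CPM). The 13 protein-coding mitochondrial genes held 3.35% ± 1.09. The elongation factor eef1a1l1, which brings aminoacyl-tRNA to the ribosome, averaged 9182 ± 2190.2 CPM. MT-CO1, the catalytic subunit of cytochrome c oxidase, averaged 11867 ± 4289.5 CPM, with 7621 CPM in replicate 1, 15564 and 15573 CPM in replicates 4 and 5, and 6883 and 13691 CPM in replicates 2 and 3. Replicates 1 and 2 were thus the low libraries for it.

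The melanin enzyme TYRP1 (ENSDARG00000056151) averaged 252 ± 58.2 CPM and was highest in replicate 2, at 353 CPM, with 207 to 243 CPM in the other 4 libraries. gch2, which starts the synthesis of yellow pteridine pigment in xanthophores, averaged 175 ± 36.1 CPM, and pnp4a, a purine enzyme of the reflecting iridophores, 43.0 ± 14.4 CPM. In the pronephros, the embryonic kidney, the sodium pump subunit atp1a1a.4 averaged 103 ± 19.7 CPM. On the ionocyte list, the proton pump subunit ATP6V1A (ENSDARG00000034534) averaged 192 ± 55.0 CPM, and which cells it came from cannot be told in whole-embryo RNA. The ionocyte list had a share of 0.113% ± 0.00283, with 0.1085% to 0.1156% in the 5 libraries. Lysozyme (lyz), a granule enzyme of neutrophils, averaged 13.7 ± 8.29 CPM and ranged between 1.19 CPM in replicate 1 and 22.3 CPM in replicate 5. It was not listed in the recovered reads, so its low value in replicate 1 rests on the count files alone.

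Dividing cells were marked by PCNA, the sliding clamp of DNA polymerase, at 276 ± 52.1 CPM, by mki67 at 390.4 ± 179.6 CPM and by TOP2A, a topoisomerase of mitosis, at 227 ± 40.6 CPM. The constitutive chaperones HSP90AB1 and HSPA8 (ENSDARG00000068992) averaged 4312 ± 452 and 4284 ± 576 CPM and had the smallest spreads on the log2 scale of the 20 highest genes, with SDs of 0.16 and 0.19. The inducible hsp70.3 averaged 14.5 ± 7.19 CPM, and HMOX1, the heme oxygenase induced by oxidative stress, 9.71 ± 4.83 CPM. HMOX1 was 16.9 CPM in replicate 2 and 11.7 CPM in replicate 1, with 5.23 to 9.39 CPM in the other 3 libraries. The p53 target CCNG1 averaged 582 ± 140 CPM, and the light-responsive clock gene cry3a 391 ± 95.1 CPM. The complement component c3a.1 averaged 381 ± 60.6 CPM, with 441 CPM in replicate 4 and 289 CPM in replicate 5.

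Insulin (ins) averaged 10.8 ± 5.69 CPM and prolactin (prl), a pituitary hormone, 2.75 ± 0.854 CPM. The endothelial receptor kdrl averaged 49.4 ± 2.39 CPM and varied little. Hatching enzyme he1.1, secreted to digest the egg envelope, averaged 253 ± 65.5 CPM. Lists of germ cells, lymphoid cells and the oocyte had no gene at 5 CPM or more, and held 0.00104%, 0.000936% and 0.000201% of the counts.

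**Figure D2:**
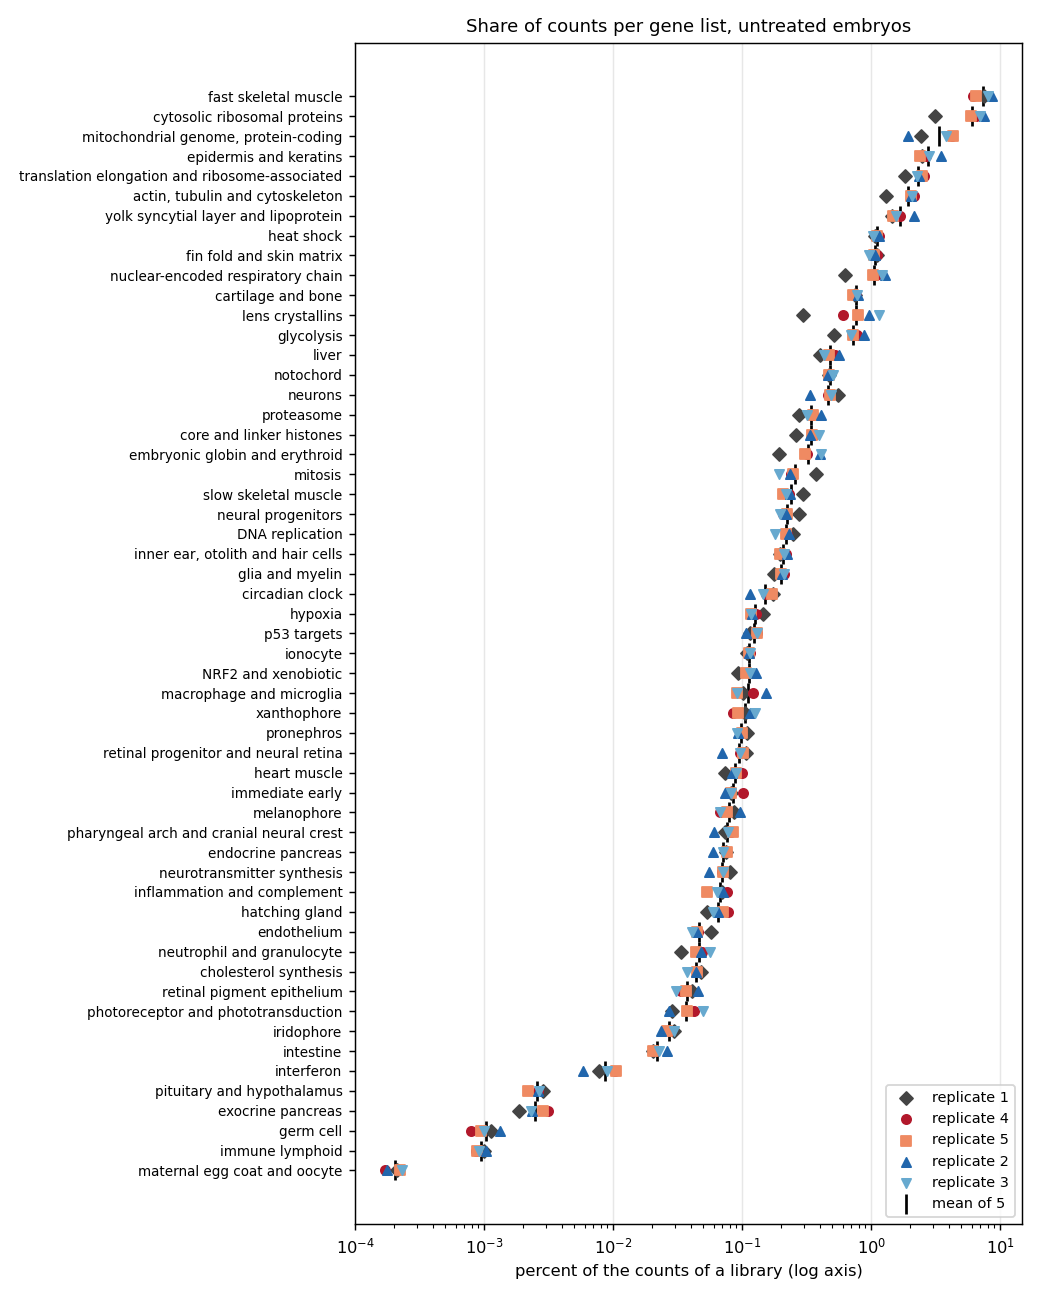
Percent of a library's counts (log axis) held by each of 55 gene lists, 1 row per list, ordered by the mean of the 5 untreated libraries; symbols are libraries and the bar is the mean. Fast muscle leads at 7.34%, and the lens crystallin list ranges between 0.295% in replicate 1 and 1.14% in replicate 3.

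The next question was how far the 5 libraries differ among themselves. The standard deviation (SD) of log2(CPM + 0.5) over the 5 libraries had a median of 0.30 over the 13940 genes, where counting error alone would give 0.08. It was above 0.5 for 2479 genes (17.8%), above 1 for 233 and above 2 for 13. Over the provider's 4 libraries alone, genes of at least 5 CPM in those libraries exceeded 0.5 in 1115 cases. Replicates 4 and 5 were the closest pair, with a biological coefficient of variation of 10.9%, against 26.2% between replicates 2 and 3. Pearson's r of log2 CPM over these genes was 0.99 between replicates 4 and 5, 0.95 between replicates 2 and 3, and 0.88 to 0.91 between replicate 1 and each of the others. Replicates 2 and 3 were not each other's nearest library. Replicate 3 had r of 0.97 with each of replicates 4 and 5, with 340 and 278 genes over 2-fold, against 774 with replicate 2. Replicate 2 had r of 0.95 with replicate 5, with 694 genes over 2-fold. These correlations are across genes of the same libraries and describe likeness only.

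The steadiest of the 1000 highest genes was mab21l2, a gene of eye and midbrain development, at 195 ± 1.87 CPM, with an SD of 0.01 on the log2 scale. rtn1a (a neuronal reticulon), AP2A1 (clathrin adaptor), APP (amyloid precursor protein) and IPO7 (nuclear import) followed with SDs of 0.03 to 0.04. Leaving out genes named only by a clone or an identifier, the largest SDs belonged to RPL26, HMGB2, UQCRB, RPL9 and hspb9, at 2.36 to 4.07, each with replicate 1 far below the others. That ranking is from the count files. With the same genes left out, genes of at least 5 CPM in both sets of counts were also ranked by the smaller of their 2 SDs. rn7sl1, the RNA of the signal recognition particle, then led at 1.62. Of the clone-named genes, zgc:158463 had an SD of 2.74 and was high in replicates 4 and 5, at 381 and 341 CPM, against 11.03 and 37.6 CPM in replicates 2 and 3 and 5.59 CPM in replicate 1.

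Replicates 4 and 5 had lower levels of most fast-muscle and lens genes than replicates 2 and 3, and higher levels of most mitochondrial transcripts, while few single genes passed the test. The labels do not divide the provider's libraries this way. The split was set with earlier results of these data known, so its p-values describe these libraries and are no independent evidence that the pairs differ. In the quasi-likelihood test of edgeR, with p adjusted by Benjamini-Hochberg, 5 of 21012 genes (0.0238%) passed at 0.05. In replicates 4 and 5, 4 of them were higher (0.019%) and 1 was lower (0.00476%). Before adjustment, 1927 genes had a p under 0.05. More genes passed after adjustment without replicate 2 or without replicate 3. The spread then comes from replicates 4 and 5 alone, the closest pair, and the lone library is assumed to vary like them. More also passed without replicate 4 or without replicate 5, with the spread from replicates 2 and 3. DESeq2 called 91 genes. Levels of replicates 4 and 5 lay above both of replicates 2 and 3 for 23.4% of the 13940 genes and below both for 19.5%.

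The single gene with a symbol that passed was lgals1l1, a galectin of the carbohydrate-binding lectin family. It stood at 3.77 and 3.69 CPM in replicates 4 and 5, against 37.8 and 69.2 CPM in replicates 2 and 3, a log2 difference of -3.84 ± 0.34 (SE; adjusted p = 0.0119, edgeR). The ranges did not overlap in the count files. In the reads recovered from the series table the same gene stood at 51.4 and 26.1 CPM in replicates 4 and 5, against 65.8 and 80.6 CPM in replicates 2 and 3, a smaller gap that still did not overlap. The log2 difference was -0.92 there and did not pass, and the gene did not pass with limma-voom either. Of the 4 genes without a symbol that rose, ENSDARG00000116076 stood at 437 and 436 CPM in replicates 4 and 5, against 20.2 and 26.6 CPM in replicates 2 and 3. ENSDARG00000115978 stood at 525 and 395 CPM in replicates 4 and 5, against 42.7 and 37.4 CPM in replicates 2 and 3. Their log2 differences were 4.22 ± 0.21 and 3.52 ± 0.21 (SE), and replicate 1 stood at 11.6 and 12.9 CPM.

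Genes of the giant sarcomere proteins were low in replicates 4 and 5. A titin gene, TTN (ENSDARG00000000563), encoding the elastic filament of the sarcomere, stood at 699 and 740.2 CPM in replicates 4 and 5, against 1670.1 and 1636 CPM in replicates 2 and 3. The difference was -1.20 ± 0.15 on the log2 scale and did not pass (adjusted p = 0.0931, edgeR). Obscurin (obscnb), another giant protein of the sarcomere, stood at 16.3 and 22.8 CPM in replicates 4 and 5, against 78.2 and 53.5 CPM in replicates 2 and 3 (adjusted p = 0.179, edgeR). The M-band gene MYOM1 (ENSDARG00000104836), the calcium release channel RYR1 (ENSDARG00000023797) and the thin-filament ruler NEB showed differences of -1.04, -1.09 and -0.90, none past the test. In the recovered reads TTN stood at 618 and 659 CPM in replicates 4 and 5, against 1547 and 1439.5 CPM in replicates 2 and 3, much as in the count files.

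As a list, none of 32 fast-muscle genes had a log2 difference above 0, with a median of -0.45, where the median over all genes tested was -0.03 and 47.1% were above 0. Of 31 members of at least 5 CPM, 25 lay below both of replicates 2 and 3 in both of replicates 4 and 5, where 19.5% of all 13940 genes did. None of the list passed the test on its own. The slow-fibre list did not share the pattern in its median (-0.03) in the count files. In the recovered reads its median was -0.19 with 3 of 10 genes above 0, and that of fast muscle -0.46 with 2 of 32 above 0. The heart list was also mostly lower in the count files, with a median of -0.27 and 4 of 19 above 0. Its share of counts was nevertheless higher, at a mean of 0.0949% in replicates 4 and 5, against 0.0867% in replicates 2 and 3.

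Lens crystallins went the same way, with a median of -0.53 and 5 of 47 above 0. The gamma-crystallin crygm2d18 stood at 174 and 191 CPM in replicates 4 and 5, against 346 and 375 CPM in replicates 2 and 3, and did not pass (adjusted p = 0.256, edgeR). The 2 groups did not overlap in this gene. In both of replicates 4 and 5, 22 of 38 crystallins of at least 5 CPM lay below both of replicates 2 and 3. On the same measure 1 crystallin lay above, and 19.5% of all 13940 genes lay below. CRYBB1, a beta-crystallin, did overlap, at 171 and 429 CPM in replicates 4 and 5, against 374 and 623 CPM in replicates 2 and 3. Nuclear-encoded respiratory chain genes (median -0.30, 11 of 94 above 0) and ribosomal protein genes (median -0.28, 11 of 81 above 0) were also mostly lower in replicates 4 and 5. FABP2, the fatty-acid binding protein of the gut and yolk layer, stood at 53.4 and 48.8 CPM in replicates 4 and 5, against 128 and 97.1 CPM in replicates 2 and 3. The yolk list had a median of -0.21, with 7 of 27 above 0. The intestine list did not go this way, with a median of 0.08 and 10 of 19 above 0. Of its 10 members of at least 5 CPM, 5 lay above both of replicates 2 and 3 and 1 lay below. Epidermal genes had a median of -0.29, and icn, an ictacalcin of the skin, stood at 251 and 223 CPM in replicates 4 and 5, against 456 and 491 CPM in replicates 2 and 3.

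The mitochondrial genome went the other way. Of its 13 genes, 12 had a log2 difference above 0, with a median of 0.60, and 10 lay above both of replicates 2 and 3, where 23.4% of all 13940 genes did. MT-ND6, a subunit of complex I encoded on the light strand, stood at 544 and 520.0 CPM in replicates 4 and 5, against 110.4 and 353 CPM in replicates 2 and 3. Within the lower pair the values differed, since the mitochondrial share was 3.81% of counts in replicate 3, against 1.94% in replicate 2. Some other lists were also mostly higher in replicates 4 and 5, with no member past the test. In the eye, unlike the lens, the neural retina list had a median of 0.20 with 16 of 18 above 0. The hatching gland list had a median of 0.24 with 8 of 9 above 0, and immediate early genes 0.17 with 24 of 31 above 0. Lists of proliferation differed in direction: the mitosis list had a median of 0.11 with 24 of 35 above 0, DNA replication 0.02 with 19 of 35 above 0, and histones -0.11 with 3 of 11 above 0, and no member passed. mki67, which marks cycling cells, stood at 385 and 400.4 CPM in replicates 4 and 5, against 257 and 228 CPM in replicates 2 and 3 (adjusted p = 0.363, edgeR). The chromatin protein hmga1a stood at 2970.1 and 3044 CPM in replicates 4 and 5, against 1729.6 and 1948 CPM in replicates 2 and 3 (adjusted p = 0.363, edgeR), also without overlap.

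Leaving out genes named only by a clone or an identifier, those with the smallest p on the higher side were PPP2R5D, a regulatory subunit of protein phosphatase 2A, and rn7sl1, the RNA of the signal recognition particle. PPP2R5D stood at 33.0 and 34.1 CPM in replicates 4 and 5, against 9.09 and 13.6 CPM in replicates 2 and 3. rn7sl1 stood at 21.7 and 15.9 CPM in replicates 4 and 5, against 3.32 and 1.01 CPM in replicates 2 and 3. Neither passed the test, with adjusted p of 0.230 and 0.238 (edgeR). The clone-named gene zgc:158463 had a smaller adjusted p of 0.0888 (edgeR), with a log2 difference of 3.89. Both PPP2R5D and rn7sl1, and TTN, obscnb and crygm2d18 on the lower side, passed with DESeq2 and with no filter on low counts; all of these except rn7sl1 also passed in the fit of all 10 libraries.

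Between replicates 3 and 2, 774 genes of at least 5 CPM differed by more than 2-fold (5.55%), 362 higher and 412 lower in replicate 3. The muscle actin actc1c stood at 9.53 CPM in replicate 3, against 137 CPM in replicate 2. A beta-type globin, HBE1 (ENSDARG00000113599), stood at 379 CPM in replicate 3, against 2515 CPM in replicate 2, while the cone opsin OPN1SW stood at 26.04 CPM in replicate 3, against 3.13 CPM in replicate 2. Replicate 2 was the library apart in the neuronal gene ELAVL4, with 275 CPM where the other 4 libraries had 508 to 615 CPM. The genes named for these pairs were chosen after their values were seen.

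Between replicates 4 and 5 only 69 genes (0.495%) differed by more than 2-fold, 30 higher and 39 lower in replicate 4. The lower ones included a pair of lens genes. The beta-crystallin CRYBB1 stood at 171 CPM in replicate 4, against 429 CPM in replicate 5, and the lens filament gene BFSP1 at 3.52 CPM in replicate 4, against 13.0 CPM in replicate 5. On the higher side, FKBP5, a glucocorticoid-induced chaperone, stood at 39.1 CPM in replicate 4, against 9.18 CPM in replicate 5, and the transcription factor FOS at 17.3 CPM in replicate 4, against 3.31 CPM in replicate 5. Each is a difference between single libraries and has no test.

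The same signs recurred in treated libraries. Of the 774 genes that differed by more than 2-fold between replicates 3 and 2 at 0 ppb, 771 had the same sign between replicates 3 and 2 at 200 ppb, which share no library with them. Over all genes of at least 5 CPM the share was 81.9%. Of the 69 genes between replicates 4 and 5, 60 had the same sign between replicates 1 and 2 at 800 ppb, where the share over all genes was 64.4%. Of 221 genes over 2-fold between replicates 4 and 5 and replicates 2 and 3, 220 had the same sign between the 800 ppb libraries and replicates 2 and 3 at 200 ppb, with 80.2% over all genes. For actc1c, replicates 4 and 5 at 0 ppb had 64.1 and 183 CPM and the 800 ppb libraries 56.4 and 155 CPM. Replicates 2 and 3 had 137 and 9.53 CPM at 0 ppb and 123 and 7.30 CPM at 200 ppb. What untreated and treated libraries with like values have in common is not given in the labels.

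**Figure D3:**
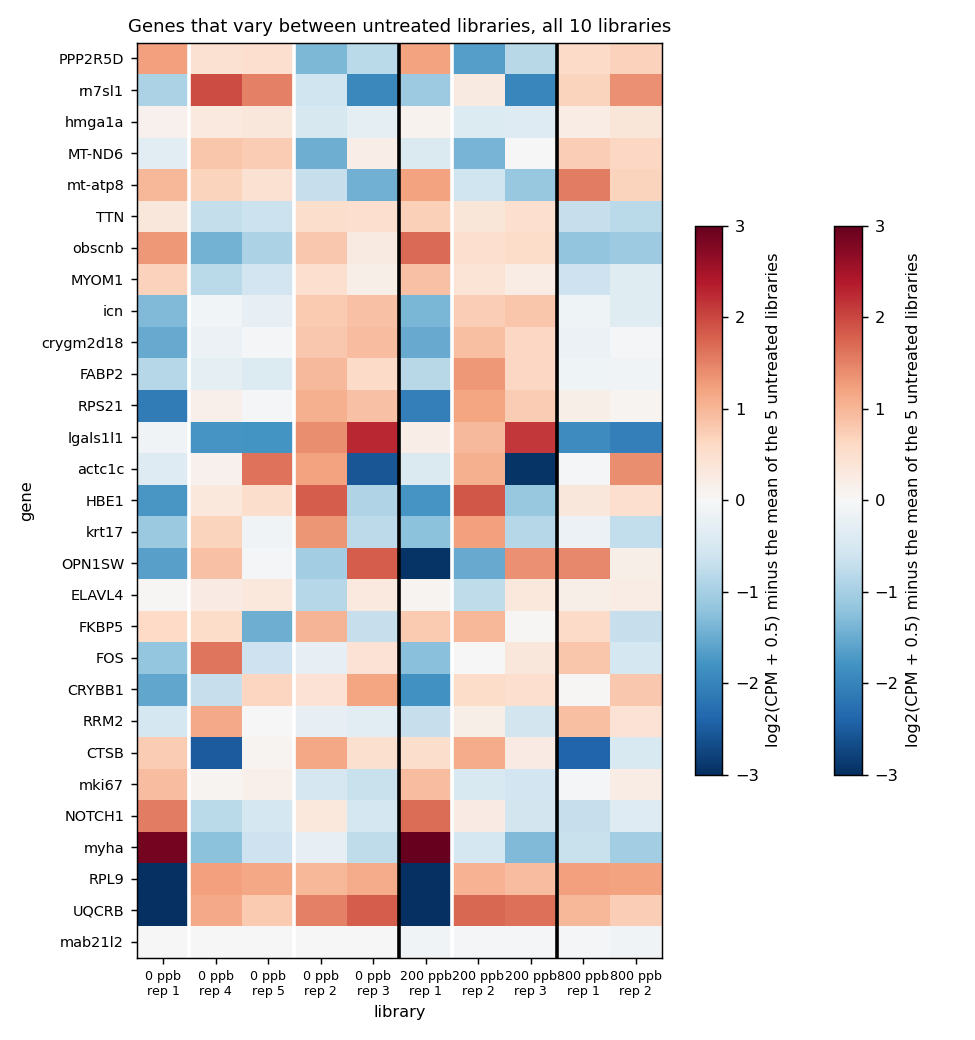
Level of 29 genes (rows) in all 10 libraries (columns, by dose), as log2(CPM + 0.5) minus the mean of the 5 untreated libraries; red is higher and blue lower, with the colour scale ending at 3 either way. The pattern of untreated replicates 2 and 3 recurs in replicates 2 and 3 of 200 ppb, that of untreated replicates 4 and 5 in the 800 ppb libraries, and that of untreated replicate 1 in replicate 1 of 200 ppb.

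Replicate 1 stood further apart than any provider library. It lay outside the range of the other 4 for 64.8% of the 13940 genes, and 943 of 21012 genes (4.49%) passed edgeR's test against replicates 2 to 5, 465 higher (2.21%) and 478 lower (2.27%). The share outside the range was not computed for any other library, so it has no figure beside it, and part of it would arise by chance. With a single library on 1 side, the test assumes that replicate 1 varies like the others. For replicate 1 the count file and the recovered reads were equal, and for replicates 2 to 5 they were not. Which set was counted like replicate 1 is not given, so site and counting cannot be told apart in the count files. Ribosomal and respiratory chain genes were low in replicate 1: of 81 ribosomal protein genes, 47 fell and none rose (median log2 difference -1.33), and of 94 nuclear-encoded respiratory chain genes 40 fell and none rose (median -1.20), where the median over all genes tested was -0.01. Of 47 lens crystallins, 22 fell and none rose. Fewer of each of these lists passed in the recovered reads. The median log2 differences there were -1.15 for ribosomal, -1.01 for respiratory chain and -1.63 for crystallin genes. Of 32 fast-muscle genes, 2 rose and 6 fell, with a median of 0.15.

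The gene that fell furthest was RPL26, a ribosomal protein, with 0.11 CPM in replicate 1, against 186 to 562 CPM in replicates 2 to 5 (adjusted p = 0.00355, edgeR). UQCRB, a subunit of complex III, stood at 0.146 CPM in replicate 1, against 41.1 to 85.6 CPM in the others, and RPL9, another ribosomal protein, at 14.05 CPM, against 639 to 749 CPM. Replicate 1 did not overlap the other 4 libraries in these genes. Replicate 1 of 200 ppb, from the same site, had 0.167 CPM of RPL26 and 12.2 CPM of RPL9. In the recovered reads RPL9 was low in every untreated library, at 14.8 CPM in replicate 1 and 4.41 to 8.10 CPM in replicates 2 to 5, and RPL26 and UQCRB were not listed there.

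Among genes higher in replicate 1, myha, a myosin heavy chain, stood at 57.2 CPM in replicate 1, against 2.85 to 6.14 CPM in replicates 2 to 5 (log2 difference 3.67, adjusted p = 0.00224, edgeR). In the recovered reads its log2 difference was 2.13. The calpain capn2l, a calcium-dependent protease, stood at 34.05 CPM in replicate 1, against 1.61 to 3.57 CPM in the others. In the recovered reads capn2l stood at 35.8 CPM in replicate 1, against 36.0 to 49.5 CPM in the others, so its difference was absent there. NOTCH1 (ENSDARG00000052094), a receptor of neural progenitors, stood at 214 CPM in replicate 1, against 41.8 to 92.1 CPM in the others, and had 225 and 40.4 to 88.6 CPM in the recovered reads.

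Results differed between the 2 sets of counts in both comparisons. Of the genes over 2-fold in the count files that the series table lists, 1130 of 1682 were over 2-fold in the recovered reads for replicate 1, and 128 of 218 for replicates 4 and 5 against 2 and 3. The sign was the same in 1651 of the 1682 and in 215 of the 218. The test of replicates 4 and 5 against 2 and 3 called 7 genes there. They included 3 of the 4 genes of the reported fit that the series table lists. On the recovered reads 153 genes passed the test of replicate 1, 86 higher and 67 lower, and 143 of them were among the 943. The ribosomal list had a median of -1.15 there. For the spread between all 5 libraries, 13800 genes had 5 CPM or more in both sets of counts. Of these, 1753 exceeded an SD of 0.5 in both, which was 73.0% of the list from the count files and 87.9% of the list from the recovered reads. epcam, an epithelial adhesion gene, shows the gap: in the count files it stood at 71.2 and 125 CPM in replicates 4 and 5, against 21.8 and 8.66 CPM in replicates 2 and 3, and in the recovered reads at 186 and 196 CPM in replicates 4 and 5, against 203 and 164 CPM in replicates 2 and 3.

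**Figure D4:**
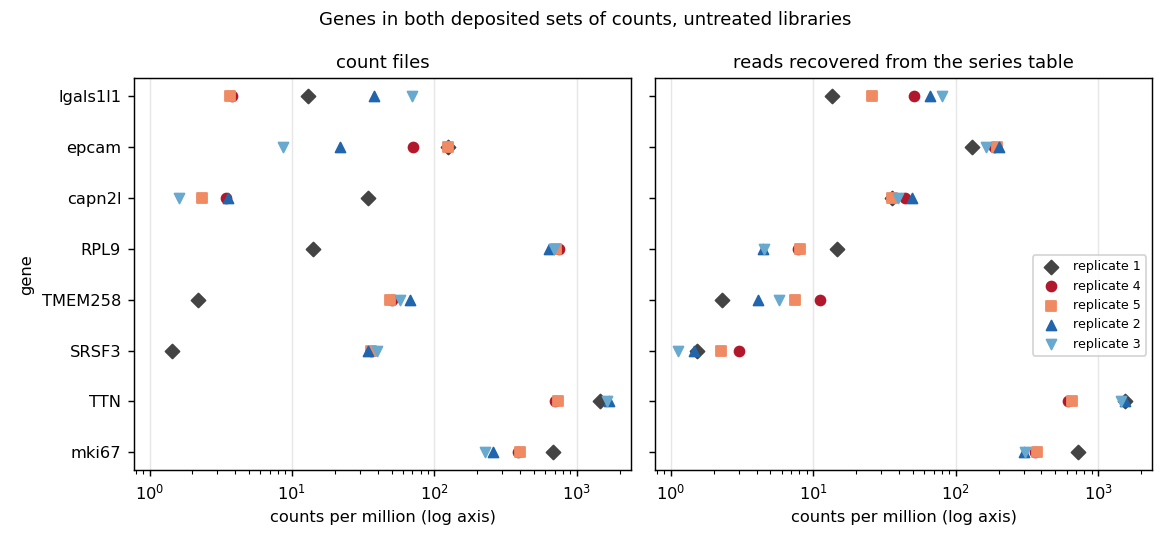
CPM (log axis) of 8 genes in the 5 untreated libraries, from the count files (left) and from the reads recovered from the series table (right); symbols are libraries. epcam, capn2l and RPL9 spread apart in the count files and draw together in the recovered reads, while TTN and mki67 keep their order of groups in both.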

How the data were processed

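RNA of whole zebrafish embryos was sequenced in 10 libraries, of which the 5 untreated ones are described. Of the processing, the submitters' notes list FastQC, cutadapt, STAR, edgeR and the build GRCz11, with no roles. The counting tool, its strand setting and the annotation release were not given in the sources, so a gene and its antisense neighbour may share reads. The deposited values are read counts per Ensembl gene, 1 file per library, with 32057 genes in every file. A series table that the authors deposited holds log2 values for 18963 genes. With a prior count of 2 these convert back to whole reads in 100% of cases (tolerance 0.05 reads). The converted reads equalled the count files for replicate 1. For replicates 2 to 5 they were another count set, with totals 1.12 to 1.19 times as large.

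Counts were scaled by TMM over all 10 libraries and tested with edgeR 4.0.16 (R 4.3.3; quasi-likelihood, Benjamini-Hochberg at 0.05, genes kept by filterByExpr); DESeq2 1.42.0 and limma 3.58.1 were alternatives. Replicates 4 and 5 were set against replicates 2 and 3 in a fit with replicate 1 as a set of its own, and replicate 1 against replicates 2 to 5 in a separate fit. The code was tested on simulated data. Symbols came from the gene name table for 28988 genes. Of 1212 entries in the lists not set by a name pattern, 845 matched a symbol. A further 255 matched once a paralog letter was dropped, and 112 matched none. The globin list does not include the genes named HBE1. List shares depend on this matching. Named genes were the 20 highest, the 2 highest and 2 most different per list, the smallest p or largest fold of each test, and the largest and smallest SD; the others were chosen after their values were seen. The lists, their genes and these sets were chosen with earlier results of these data known, and the 5 libraries by their labelled dose. Errors are the SD between libraries or the SE of a fit.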

Additional observations from a re-analysis of the deposited data

Results flagged for a closer look

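Among 94 named genes and 16 list shares, 10 had 1 untreated library far from the other 4, the gap being over 0.71 of the whole range of the 5 (Dixon's ratio); chance flags about 1 in 20 groups, but that rate cannot be applied here, since several of these genes were named for differing in replicate 1 or for their large or small SD. Replicate 1 was the library apart in 6 of them. It was low for actc1b (ratio 0.841), eef1a1l1 (0.795), RPL3 (0.828) and RPL9 (0.85), and high for myha (0.939) and capn2l (0.939). Replicate 2 was high for TYRP1 (ENSDARG00000056151; 0.752). Replicate 3 was the library apart in the other 3: low for the clathrin adaptor AP2A1 (0.812) and the collagen gene COL1A1 (0.715), and high for the share of the notochord list (0.803). The depth of replicate 1 was 48336918 counted reads, and 12283473 to 16530557 in the others. The part of depth, site and counting in these values was not tested. In the recovered reads the log2 difference of capn2l between replicate 1 and the others was -0.23, and RPL9 was low in every untreated library. The count file of replicate 1 also held 463 features that the provider's files lack, with 0.339% of its counts, which entered no comparison.

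The heat shock gene hsp70.3 stood at 8.38 and 14.4 CPM in untreated replicates 4 and 5, against 23.5 and 19.5 CPM in untreated replicates 2 and 3, a log2 difference of -0.93. The 800 ppb libraries went the other way, at 122 and 53.004 CPM, against 30.8 and 27.3 CPM in replicates 2 and 3 of 200 ppb. The difference between these contrasts was not tested.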

How the results depend on the processing

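Between replicates 4 and 5 and replicates 2 and 3, 5 genes passed with edgeR, 65 with no filter on low counts, 91 with DESeq2 and 58 in a fit of all 10 libraries; leaving out 1 library gave 5 to 4080 (most without replicate 3). Higher genes were 80.0% of the calls in the reported fit, and 43.1%, 38.5% and 43.1% under those alternatives. For replicate 1 against the other 4, 943 genes became 2393 with DESeq2, 2905 with limma-voom, 7081 with all 10 libraries and 153 with the recovered reads, and leaving out 1 library gave 182 to 4222 (fewest without replicate 3, most without replicate 2). The 2479 genes with an SD over 0.5 became 4418 at a mean of at least 1 CPM, where more genes are counted, and 1115 over the provider's 4 libraries; leaving out 1 library gave 1115 to 3146. In the recovered reads hbae1.1, an alpha globin, turned to -0.82 in replicates 4 and 5 against 2 and 3, where the count files gave 1.25, and capn2l turned to -0.23 in replicate 1 against the others; the cause was not tested beyond the 2 sets of counts. All gene lists together held 35.4% of counts, 34.5% in the recovered reads, and 34.6% to 37.0% with 1 library left out. Apart from hbae1.1 and capn2l on the recovered reads, genes named by either test kept their direction under every setting run. Over all pairs of gene and setting, the recovered reads included, a call was lost in 9 and gained in 73. epcam kept its sign on the recovered reads, but at 0.05, against 2.68 in the count files. Alternatives added after the values were seen were the SD in both sets of counts, and a test of series-table genes alone, which gave 971 calls for replicate 1. Shares per kilobase were not run, since no transcript lengths were given. No paired analysis was possible because both comparisons lie within the 0 ppb group, where no replicate number recurs. With 2 residual degrees of freedom the median SE was 0.289, which limits what the first comparison can call.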
